A study of Homo sapiens with 24 samples.

Results

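The genes described here are 39 genes of glycolysis and of the transcriptional response to low oxygen. They were chosen by name, with earlier results of these data known. They were read from the count table through their Ensembl identifiers, 39 of 60675 identifiers in all. MIA PaCa-2 cells, a cell line from a human pancreatic carcinoma, carried a pCW57 Tet-On vector either with the CEBPD cDNA (C/EBPδ-inducible cells, a pool of 3 clones that also carry the green fluorophore mVenus) or without it (CTRL cells, with the red fluorophore mCherry), and doxycycline at 2 µg/mL was given to both lines. RNA depleted of ribosomal RNA was sequenced at 0, 8, 24 and 48 h, as 24 libraries, 3 wells for each line and time. The labels list the dose at 0 h too, whereas the study describes wells without doxycycline, and 0 h was used as untreated. CTRL cells also received doxycycline and also spent time in culture, so that within a line these cannot be told apart, and the difference between the changes of the lines (the interaction) was tested for that reason. Differences between the lines at one time cannot be told apart from their separate origin. The same holds for the interaction, since lines of separate origin may respond differently to doxycycline or to culture time. CEBPD itself stood at 21.5 CPM in C/EBPδ-inducible and 3.94 CPM in CTRL cells at 0 h (means). CPM is the gene's count scaled to libraries of equal size.

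Glycolysis turns glucose into pyruvate: glucose transporters bring the sugar in, hexokinases trap it as glucose 6-phosphate, phosphofructokinase commits it, and the lower enzymes from GAPDH to PKM make ATP. When oxygen is scarce, prolyl hydroxylases such as EGLN1 stop marking HIF alpha subunits for breakdown, and HIF1A or EPAS1 (HIF-2α), paired with ARNT, bind the core RCGTG in DNA and raise many glycolytic genes together with genes of pH balance, mitophagy and collagen modification. HIF1A protein is mainly set by its breakdown, so that its mRNA level is not a measure of HIF activity, and pancreatic carcinoma is known for poorly oxygenated, glycolytic tumors.

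The libraries held from 12731237 to 22598595 counts (median 18959363.5), of which the 39 genes took 1.57 to 1.85% and mitochondrial genes 2.58 to 3.65%. CEBPD reached 246, 308 and 205 CPM (means) at 8, 24 and 48 h in C/EBPδ-inducible cells, against 1.90 to 4.01 CPM in CTRL groups. The 6 epithelial markers summed to 2081 to 2972 CPM in CTRL and 120.2 to 221 CPM in C/EBPδ-inducible libraries, mostly KRT8, KRT18 and KRT19, with EPCAM near 1 CPM. Of markers of other cell types, 5 fibroblast genes summed to 448 to 685 CPM in CTRL and 135 to 252 CPM in C/EBPδ-inducible libraries, almost all COL1A2, while 3 endothelial, 3 leukocyte and 2 acinar genes stayed at or below 2.71, 2.02 and 0.0530 CPM in sum, with CD3E and PRSS1 at 0. Their part in the differences between lines was not tested. The replicates are wells seeded in parallel, so that p-values measure the spread between wells, and this spread was widest in CTRL cells at 8 h (biological coefficient of variation 9.28%, against 2.31 to 7.17% in the other groups).

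Per kb of exon and over all 24 libraries, the lower enzyme GAPDH was the most abundant member at 1877 CPM per kb, followed by ENO1 at 499, PKM at 355, ALDOA at 334 and TPI1 at 314 CPM per kb. Of the 39 members, 35 passed the filter on low counts in every comparison. The 4 others, CA9 (a carbonic anhydrase), BNIP3 (a mitophagy receptor), LOX (lysyl oxidase) and EGLN3 (a prolyl hydroxylase), are known targets of HIF and had at most 2, 7, 6 and 13 counts in any library. CA9 was counted 3 times in 24 libraries, and 0 counts in a library allow up to 3, which covers counting error only. Among the 35 tested members, the highest library was 18.0 times the lowest for EPAS1 and 11.4 times for ALDOC, the widest ranges, and 1.16 times for KDM3A, the narrowest.

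The promoters of 3 members are shown because they hold the core that HIF binds and because their genes follow different courses: PGK1 rose with time in C/EBPδ-inducible cells, LDHA did not, and ALDOC rose in both lines. They are RefSeq sequences of GRCh38.p14, read 5′ to 3′ on the strand of the gene from 250 bases before to 50 bases after its start, at chrX:78103998-78104297 (plus strand), chr11:18394313-18394612 (plus) and chr17:28576846-28577145 (minus). Capitals mark ACGTG and GCGTG on either strand, which read CACGT and CACGC on the other strand, and a CACGTG counts on both.
PGK1: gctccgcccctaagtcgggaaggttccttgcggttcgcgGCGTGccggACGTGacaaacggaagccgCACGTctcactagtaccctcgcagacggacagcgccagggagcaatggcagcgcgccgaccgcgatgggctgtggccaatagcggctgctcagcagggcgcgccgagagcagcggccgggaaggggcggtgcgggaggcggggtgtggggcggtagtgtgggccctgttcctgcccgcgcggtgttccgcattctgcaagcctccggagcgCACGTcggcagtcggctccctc
LDHA: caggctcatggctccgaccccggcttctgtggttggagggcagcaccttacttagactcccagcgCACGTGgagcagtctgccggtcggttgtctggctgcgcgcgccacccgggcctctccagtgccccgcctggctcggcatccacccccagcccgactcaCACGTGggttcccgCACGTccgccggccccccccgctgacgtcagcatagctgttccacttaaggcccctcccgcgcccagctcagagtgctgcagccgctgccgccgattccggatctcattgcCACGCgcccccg
ALDOC: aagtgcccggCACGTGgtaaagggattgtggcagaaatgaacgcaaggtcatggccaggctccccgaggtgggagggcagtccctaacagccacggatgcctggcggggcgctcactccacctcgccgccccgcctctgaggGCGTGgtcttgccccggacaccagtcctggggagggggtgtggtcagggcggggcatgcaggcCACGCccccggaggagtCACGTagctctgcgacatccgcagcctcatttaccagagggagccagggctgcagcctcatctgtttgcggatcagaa
The table held promoters of 36 members, without SLC2A3, BNIP3L and NDRG1. ACGTG was found in 16 of the 36 (44.4%) and in 21.6% of all 27305 promoters of the same length, and GCGTG in 18 (50.0%) and 36.3%. LDHA held 5 matches to ACGTG, LOX 4, and PGK1, ALDOC and ANKRD37 3 each, while the windows of SLC16A3 and PDK1 held neither core. TTGCNNAA, a form of the palindrome that C/EBP proteins bind, was found in 2 member promoters (PGK1 and EGLN3, 5.6%) and in 10.6% of all. Such matches describe letters in these windows and are not binding sites.

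From 24 h on, most members whose change from 0 h differed between the lines shifted toward a higher level in C/EBPδ-inducible cells, through a rise in C/EBPδ-inducible cells, a fall in CTRL cells or both. At 48 h, 14 of 35 members tested changed differently in the lines, all 14 toward a higher level in C/EBPδ-inducible cells: the glucose transporters SLC2A1 and SLC2A3, the enzymes HK2, ALDOA, TPI1, PGK1 and ENO1, the regulator PFKFB4, the lactate exporter SLC16A3, the pyruvate dehydrogenase kinase PDK1, the mitophagy receptor BNIP3L, HIF1A, the peptide hormone gene ADM and the collagen hydroxylase P4HA1. Of these, SLC2A3, PFKFB4, PGK1, SLC16A3, PDK1, BNIP3L, HIF1A and P4HA1 rose from 0 to 48 h in C/EBPδ-inducible cells, while SLC2A1, ALDOA, TPI1 and ADM were not differentially expressed there, HK2 and ENO1 fell, and all 6 of the latter fell in CTRL cells. SLC2A3, PFKFB4, PDK1 and P4HA1 rose in CTRL cells too. SLC2A1, PDK1, BNIP3L and P4HA1 had been lower in C/EBPδ-inducible than in CTRL cells at 0 h. At 48 h these genes were not differentially expressed between the lines. The background, the share of all genes tested that passed (edgeR's quasi-likelihood test, FDR 0.01), was 5.54% of 16306 genes, 2.83% higher and 2.72% lower. The members were chosen with earlier results of these data known, and the background was not matched for level. Whether members passed more often than genes of like level was not tested. The median log2 difference of the 35 members was 0.18, against -0.0100 over all genes. At 24 h, 13 members passed, 11 upward and 2 downward (LDHA and the prolyl hydroxylase EGLN1), against a background of 5.84% of 16224 genes, 2.86% higher and 2.98% lower, and the median was 0.11 (-0.000942 over all genes). At 8 h only SLC2A3 passed (background 1.66% of 16228 genes, 0.887% higher and 0.77% lower). At that time 10 of 35 members had an unadjusted p below 0.05 in edgeR's test. The spread between wells was widest in CTRL cells at 8 h, and its part in the low count was not tested. In bulk RNA, fewer cells of a type and less RNA per cell cannot be told apart.

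Markers of cell type moved in the same comparisons. Of 19 markers, 11 were tested in the interaction, and 6 of them passed at 24 h, with the cadherin gene CDH1 higher and KRT8, KRT18, KRT19, CLDN4 and COL1A2 lower (median log2 difference -0.47). At 48 h 4 passed, CDH1 upward and KRT8, CLDN4 and COL1A2 downward (median -0.32). Over time in C/EBPδ-inducible cells, 7 of 10 were called at 24 h (1 higher and 6 lower, median -0.68) and 8 of 10 at 48 h (3 higher and 5 lower, median -0.38). In CTRL cells 4 of 8 were called at 24 h (0 higher and 4 lower, median -0.23). At 48 h it was 4 of 8 (1 higher and 3 lower, median -0.0756). The background over time at 24 and 48 h was 15.5 and 38.7% in C/EBPδ-inducible and 6.06 and 30% in CTRL cells. In the interaction it was 5.84 and 5.54%. The epithelial sum was 215 to 221 CPM at 0 h, 120.2 to 127 CPM at 24 h and 141 to 149.9 CPM at 48 h in C/EBPδ-inducible cells, and 2822 to 2972, 2453 to 2484 and 2081 to 2184 CPM in CTRL cells. The fibroblast sum at these times was 238 to 252, 137 to 163 and 199 to 206 CPM in C/EBPδ-inducible and 632 to 666, 518 to 543 and 593 to 685 CPM in CTRL cells. The part of these markers in the changes of the members was not tested.

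Of the 13 calls at 24 h, 6 (SLC2A1, SLC2A3, PGK1, ENO1, HIF1A and ADM) were kept when all 24 libraries shared one model, and ALDOA, GAPDH, LDHA, SLC16A3, PDK1, EGLN1 and P4HA1 were not. At 48 h only the call of SLC16A3 ended in that model. The 48 h calls of PFKFB4, SLC16A3, PDK1 and BNIP3L ended when some single libraries were left out. The count of 1 at 8 h became 6 without CTRL 8 h replicate 3 and 2 without CTRL 8 h replicate 1 or C/EBPδ-inducible 8 h replicate 2.

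**Figure D1:**
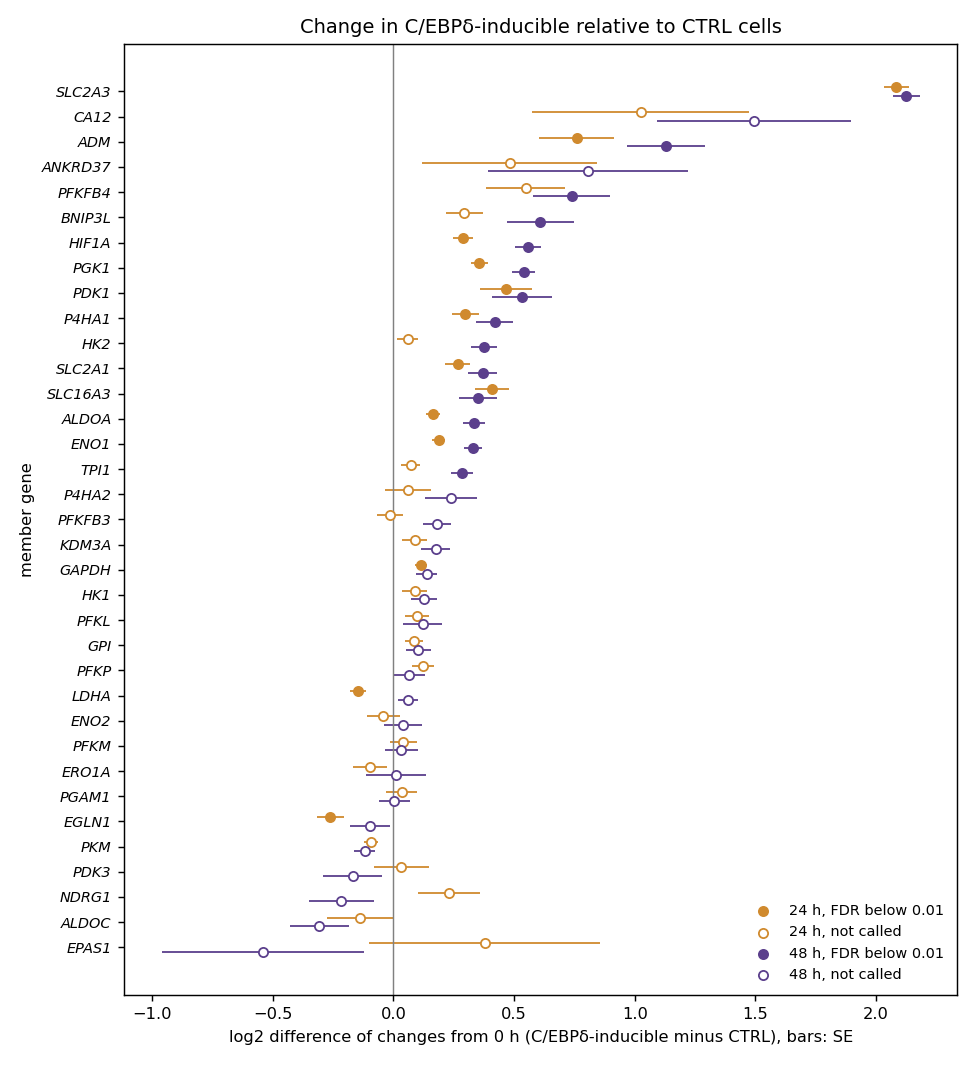
For the 35 members tested, the points give the log2 difference between the change from 0 h in C/EBPδ-inducible cells and that in CTRL cells (x axis), at 24 h (orange) and 48 h (purple), with bars for the SE; filled points have an FDR below 0.01. SLC2A3 lies apart at 2.08 and 2.13, and the filled points at 48 h all lie above 0.

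The underlying changes from 0 h differed between the lines. In C/EBPδ-inducible cells, 20 of 35 members were differentially expressed genes (DEGs) at 24 h, 18 higher and 2 lower (EGLN1 and the oxidoreductase ERO1A), where the background was 15.5% of 15560 genes, 7.33% higher and 8.14% lower. In CTRL cells at 24 h, 4 members were DEGs, with ALDOC, P4HA1 and PKM higher and ENO1 lower (background 6.06% of 15196 genes, 2.81% higher and 3.25% lower). At 48 h, 22 members were DEGs in C/EBPδ-inducible cells (17 higher, 5 lower, background 38.7% of 15394 genes, 19.1% higher and 19.5% lower) and 18 in CTRL cells (9 higher, 9 lower, background 30% of 15294 genes, 15.2% higher and 14.7% lower). The median log2 fold change of members was 0.12 and 0.13 in C/EBPδ-inducible cells at 24 and 48 h and -0.00623 and -0.00557 in CTRL cells, while all genes had medians from 0.00320 to 0.00884. At 8 h the member medians were -0.0465 in C/EBPδ-inducible and -0.0708 in CTRL cells, against -0.00643 and 0.0119 over all genes.

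The DEGs that were lower in CTRL cells at 48 h were SLC2A1, HK2, ALDOA, TPI1, PFKFB3, GAPDH, ENO1, LDHA and ADM, and those that were higher were SLC2A3, ALDOC, PFKFB4, ENO2, PDK1, PDK3, NDRG1, P4HA1 and P4HA2. The lower ones are mostly enzymes of the main path, and their log2 fold changes ran from -0.13 (LDHA) to -0.998 (ADM). At 8 h, 19 members were DEGs in C/EBPδ-inducible cells, 8 higher and 11 lower (background 30.5% of 15395 genes, 14.6% higher and 15.8% lower), and 1 in CTRL cells, LDHA (background 1.7% of 15253 genes, 0.905% higher and 0.793% lower). The 8 that were higher at 8 h were SLC2A3, HK2, PGK1, PDK1, BNIP3L, NDRG1, P4HA1 and ERO1A. The 11 that were lower were GPI, PFKL, PFKM, ALDOA, TPI1, PFKFB3, PGAM1, ENO1, PKM, LDHA and SLC16A3. Their log2 fold changes ran from -0.11 (ENO1) to -0.46 (SLC16A3). The call of PFKFB3 ended without C/EBPδ-inducible 0 h replicate 2 or 3 (adjusted p from 0.0124 to 0.0155, edgeR). It also ended under DESeq2 and in the model of all 24 libraries. The CTRL count at 8 h was 7 without CTRL 8 h replicate 1, 2 without CTRL 8 h replicate 3 and 0 without any of the other 4 libraries. With all 24 libraries in one model, the C/EBPδ-inducible count at 24 h was 11 and the CTRL count at 24 h was 2.

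Between the lines at one time, 26 members differed at 0 h (14 with more and 12 with less in C/EBPδ-inducible cells, background 43.9% of 15317 genes, 20% higher and 23.9% lower), 19 at 8 h (13 and 6, background 31.8% of 15561 genes, 14.3% higher and 17.4% lower), 26 at 24 h (19 and 7, background 46.9% of 15700 genes, 21.5% higher and 25.3% lower) and 22 at 48 h (19 and 3, background 38.3% of 15592 genes, 17.6% higher and 20.7% lower). The median log2 difference of the members was 0.0437, 0.0770, 0.16 and 0.39 at these times, and that of all genes was 0.00978 or less. ALDOC, NDRG1, ADM, EPAS1, SLC16A3, PGK1, ENO1, LDHA, PFKFB3, PFKP, HK2 and EGLN1 were higher in C/EBPδ-inducible cells at all 4 times, and HK1, PKM and PDK3 were lower at all 4. Only SLC2A3 was lower at some times (0 and 8 h) and higher at others (24 and 48 h) among the DEGs of these 4 comparisons.

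**Figure D2:**
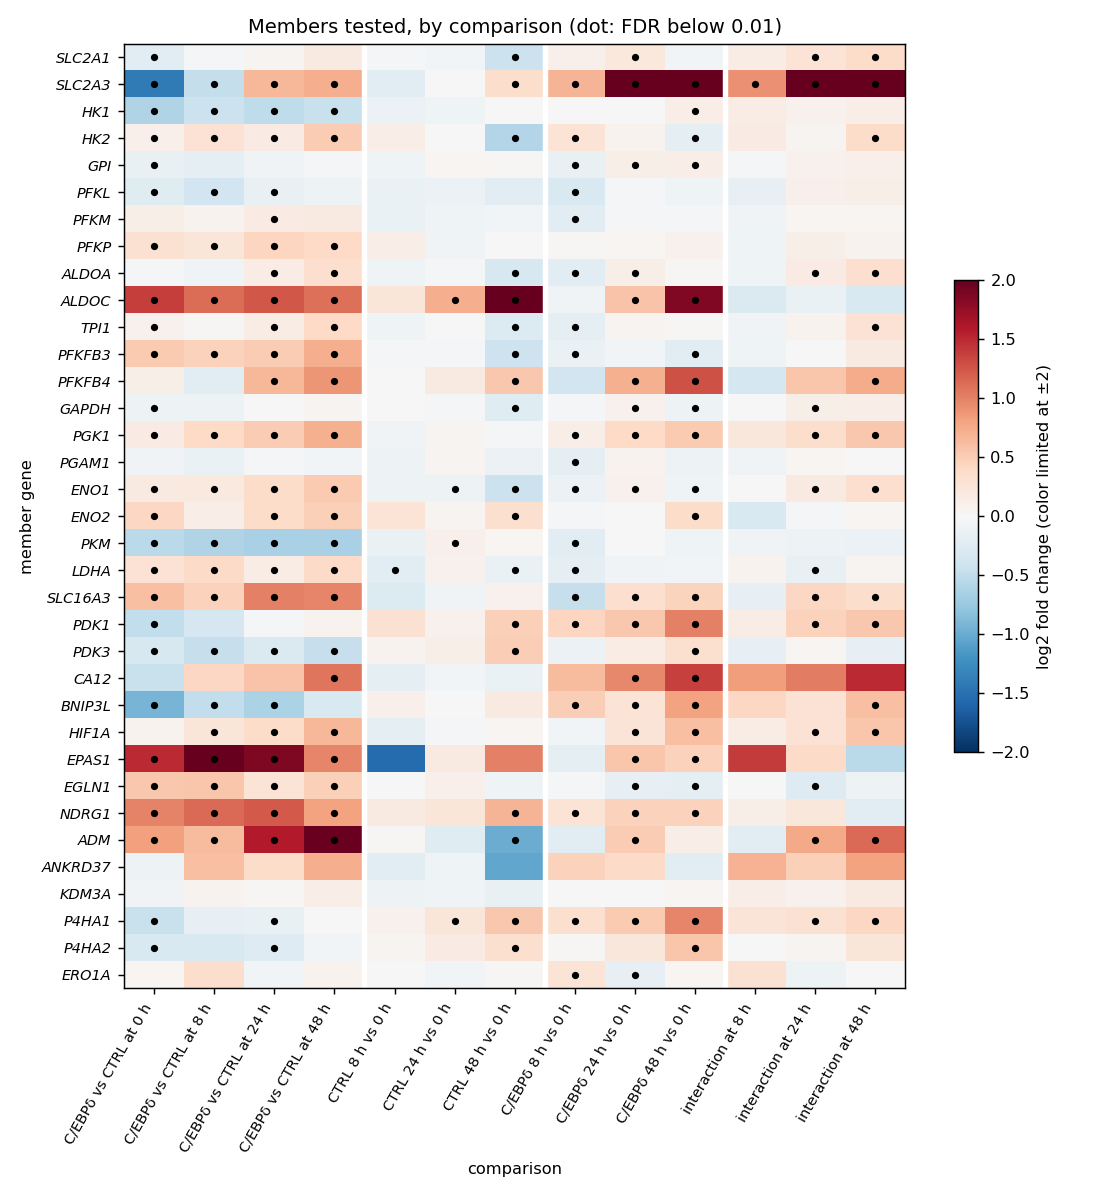
Rows are the 35 members tested and columns the 13 comparisons; the color gives the log2 fold change (limited at ±2), and a dot an FDR below 0.01. The row of SLC2A3 turns from blue at 0 and 8 h to red at 24 and 48 h between the lines, ALDOC is red in both lines over time, and the 3 interaction columns hold 1, 13 and 14 dots.

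SLC2A3 (ENSG00000059804, chr12:7919230-8019007, minus strand, GRCh38) encodes GLUT3, a glucose transporter with high affinity for glucose that is best known from neurons. In CTRL cells, SLC2A3 stood at 152, 146 and 144 CPM at 0 h, 122, 125 and 126 CPM at 8 h, 145, 152 and 147 CPM at 24 h and 186, 192 and 187 CPM at 48 h (replicates 1 to 3 in turn, scaled by TMM). In C/EBPδ-inducible cells, SLC2A3 stood at 54.0, 54.0 and 58.2 CPM at 0 h, 88.1, 90.6 and 85.3 CPM at 8 h, 234, 236 and 229 CPM at 24 h and 307, 324 and 316 CPM at 48 h. The C/EBPδ-inducible libraries were all below the CTRL libraries at 0 and 8 h and all above them at 24 and 48 h. The log2 fold change from 0 h in C/EBPδ-inducible cells was 0.68 ± 0.04 (SE), adjusted p = 8.13e-12 at 8 h, 2.07 ± 0.04 (SE), adjusted p = 3.49e-21 at 24 h and 2.49 ± 0.04 (SE), adjusted p = 5.87e-26 at 48 h (edgeR). In CTRL cells it was -0.22, -0.00 and 0.36, of which only the change at 48 h passed (adjusted p = 3.77e-05, edgeR). The interaction was 0.92 ± 0.06 (SE), adjusted p = 3.99e-07 at 8 h, 2.08 ± 0.05 (SE), adjusted p = 5.15e-19 at 24 h and 2.13 ± 0.05 (SE), adjusted p = 8.55e-15 at 48 h in edgeR's quasi-likelihood test, the largest of all members at each of the 3 times among those that passed.

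SLC2A1 (ENSG00000117394, chr1:42925353-42958893, minus strand) encodes GLUT1, the transporter for basal glucose uptake in most cells. In CTRL cells, SLC2A1 stood at 128, 127 and 122 CPM at 0 h, 124, 119 and 120.0 CPM at 8 h, 120.2, 122 and 125 CPM at 24 h and 92.4, 92.0 and 95.6 CPM at 48 h. With the CEBPD cDNA, SLC2A1 stood at 113, 108 and 106 CPM at 0 h, 118, 117 and 114 CPM at 8 h, 131, 124 and 125 CPM at 24 h and 112, 106 and 103 CPM at 48 h. It was lower in the C/EBPδ-inducible libraries at 0 and 8 h, overlapped at 24 h, and was higher at 48 h, when the CTRL libraries had fallen below all their earlier values. The test between lines at one time passed for SLC2A1 at 0 h only (-0.21, edgeR). The fall in CTRL cells at 48 h was -0.43 ± 0.05 (SE), adjusted p = 1.95e-05 on the log2 scale (edgeR), and in C/EBPδ-inducible cells the change at 24 h was 0.21 ± 0.04 (SE), adjusted p = 0.000217, with -0.05 at 48 h, not a DEG. The interaction was 0.27 ± 0.05 (SE), adjusted p = 0.000843 at 24 h and 0.37 ± 0.06 (SE), adjusted p = 0.000409 at 48 h. Exons of SLC2A1 overlap a gene on the other strand, as do those of TPI1, GAPDH, ENO1, ALDOA, ALDOC, HIF1A, BNIP3L, P4HA1, PDK1 and SLC16A3, and since the strand setting of the counting is not stated, reads from such partners cannot be told apart.

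Per kb of exon, the ratio of SLC2A3 to SLC2A1 levels was 1.07 ± 0.0202, 0.938 ± 0.0409, 1.10 ± 0.0275 and 1.84 ± 0.0570 in CTRL cells at 0, 8, 24 and 48 h (SD, n = 3). The ratio in C/EBPδ-inducible cells was 0.463 ± 0.0326, 0.689 ± 0.0142, 1.68 ± 0.0518 and 2.70 ± 0.168. GLUT1 mRNA was thus the more abundant one per length in C/EBPδ-inducible cells at 0 and 8 h and GLUT3 mRNA at 24 and 48 h, and with the length of the canonical transcript the ratios in C/EBPδ-inducible cells ran from 0.449 to 2.62.

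**Figure D3:**
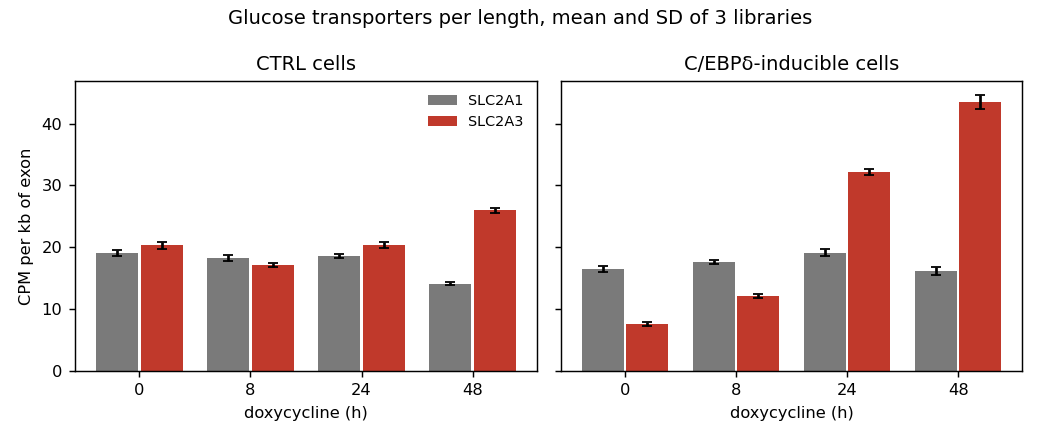
Bars give the level of SLC2A1 (grey) and SLC2A3 (red) in CPM per kb of exon, as the mean of 3 libraries with the SD, at each time in CTRL (left) and C/EBPδ-inducible cells (right). SLC2A3 goes from 7.64 ± 0.332 to 43.5 ± 1.16 CPM per kb in C/EBPδ-inducible cells, while SLC2A1 stays between 14.1 and 19.1 CPM per kb over all groups.

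Of the 9 members of upper glycolysis, the hexokinase HK2 and the enzymes ALDOA and TPI1 passed the interaction test at 48 h, and ALDOA also at 24 h, while HK1, GPI, ALDOC and the phosphofructokinase subunits PFKL, PFKM and PFKP passed at no time. HK2, which binds mitochondria and traps glucose, fell in CTRL cells at 48 h (-0.58 ± 0.04 (SE), adjusted p = 1.19e-06, edgeR) from 223 ± 7.78 to 149 ± 2.35 CPM (SD, n = 3). HK2 in C/EBPδ-inducible cells went from 241 ± 0.822 to 213 ± 7.88 CPM (-0.20 ± 0.03 (SE), adjusted p = 1.55e-05), so that the interaction of 0.37 ± 0.05 (SE), adjusted p = 9.12e-05 came with a decrease in both lines. ALDOA, the main aldolase, fell in CTRL cells at 48 h by 0.32 on the log2 scale and stood at 0.02 in C/EBPδ-inducible cells, not a DEG, with an interaction of 0.33 ± 0.05 (SE), adjusted p = 6.85e-05. TPI1, which interconverts the triose phosphates, had -0.27 in CTRL and 0.02 in C/EBPδ-inducible cells at 48 h and an interaction of 0.28 ± 0.04 (SE), adjusted p = 0.000283. HK1, the housekeeping hexokinase, was lower in C/EBPδ-inducible cells at all times, from -0.60 at 0 h to -0.43 at 8 h, and PFKP, the platelet-type phosphofructokinase, was higher, from 0.24 to 0.42. The calls of HK2 and TPI1 between lines at 0 h (0.11 and 0.09) ended for HK2 without CTRL 0 h replicate 1 or 3 or C/EBPδ-inducible 0 h replicate 1, 2 or 3 (adjusted p from 0.0109 to 0.0429) and under DESeq2 and for TPI1 without CTRL 0 h replicate 2 or 3 or C/EBPδ-inducible 0 h replicate 1 or 3 (adjusted p from 0.0135 to 0.0452) and in the model of all 24 libraries, and that of PFKP at 8 h without CTRL 8 h replicate 2 or 3 or C/EBPδ-inducible 8 h replicate 1, 2 or 3 (adjusted p from 0.0142 to 0.0385). Without a library, the log2 value of HK2 at 0 h was as low as 0.0709.

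ALDOC (ENSG00000109107, chr17:28573115-28576948, minus strand), the aldolase best known from brain, had the largest log2 change from 0 h of all members tested in CTRL cells, at 48 h. In CTRL cells, ALDOC stood at 3.58, 4.50 and 4.54 CPM at 0 h, 4.89, 5.25 and 4.55 CPM at 8 h, 6.74, 6.51 and 7.69 CPM at 24 h and 18.2, 18.3 and 19.8 CPM at 48 h. ALDOC in C/EBPδ-inducible cells stood at 11.02, 10.7 and 11.4 CPM at 0 h, 10.7, 9.85 and 11.1 CPM at 8 h, 16.9, 16.1 and 16.6 CPM at 24 h and 40.9, 40.4 and 40.6 CPM at 48 h. Libraries of C/EBPδ-inducible cells were above the CTRL libraries at every time, and the 48 h libraries were the highest in both lines. The log2 fold change at 48 h was 2.15 ± 0.11 (SE), adjusted p = 5.68e-08 in CTRL and 1.86 ± 0.06 (SE), adjusted p = 4.51e-18 in C/EBPδ-inducible cells (edgeR), and at 24 h 0.72 ± 0.13 (SE), adjusted p = 0.000670 and 0.57 ± 0.08 (SE), adjusted p = 3.73e-06. The interaction was -0.31 ± 0.12 (SE), adjusted p = 0.127 at 48 h. Per kb, ALDOC reached 15.5 ± 0.101 CPM in C/EBPδ-inducible cells at 48 h, where ALDOA stood at 356 ± 15.6 CPM.

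PFKFB3 and PFKFB4 make and break down fructose 2,6-bisphosphate, the activator of phosphofructokinase. In CTRL cells, PFKFB4 (ENSG00000114268, chr3:48517684-48562015, minus strand) stood at 5.49, 6.78 and 5.06 CPM at 0 h, 6.26, 5.31 and 5.34 CPM at 8 h, 6.63, 7.11 and 5.84 CPM at 24 h and 8.09, 7.86 and 8.99 CPM at 48 h. The C/EBPδ-inducible wells had PFKFB4 at 5.43, 6.83 and 6.45 CPM at 0 h, 5.61, 4.12 and 4.61 CPM at 8 h, 10.7, 9.84 and 10.4 CPM at 24 h and 14.7, 16.2 and 15.3 CPM at 48 h. The lines overlapped at 0 and 8 h, and the C/EBPδ-inducible libraries were higher at 24 and 48 h. PFKFB4 rose in C/EBPδ-inducible cells by 0.72 ± 0.10 (SE), adjusted p = 9.67e-06 at 24 h and 1.28 ± 0.10 (SE), adjusted p = 2.83e-11 at 48 h (log2, edgeR), and in CTRL cells by 0.53 ± 0.13 (SE), adjusted p = 0.00496 at 48 h. The interaction was 0.74 ± 0.16 (SE), adjusted p = 0.00449 at 48 h, and the call ended without CTRL 0 h replicate 2, C/EBPδ-inducible 0 h replicate 1 or C/EBPδ-inducible 48 h replicate 2 (adjusted p from 0.0154 to 0.0196). The CTRL call at 48 h ended without CTRL 0 h replicate 1 or 3 or CTRL 48 h replicate 3 (adjusted p from 0.0273 to 0.0387) and under DESeq2. PFKFB3, the form with the strongest kinase activity, was higher in C/EBPδ-inducible cells at all times (0.46 at 8 h to 0.73 at 48 h) and fell in both lines at 48 h (-0.41 in CTRL and -0.22 in C/EBPδ-inducible cells).

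Of the 6 members of lower glycolysis, PGK1 and ENO1 passed the interaction test at 24 and 48 h and GAPDH at 24 h, while PGAM1, ENO2 and PKM did not. PGK1 (ENSG00000102144, chrX:77910739-78129295, plus strand), whose promoter is shown above, makes the first ATP of the pathway. In CTRL cells, PGK1 stood at 643, 614 and 611 CPM at 0 h, 560.1, 589 and 598 CPM at 8 h, 655, 650.5 and 639 CPM at 24 h and 573, 638 and 621 CPM at 48 h. For C/EBPδ-inducible cells the PGK1 values were 693, 699 and 697 CPM at 0 h, 778, 734 and 760.4 CPM at 8 h, 913, 920.0 and 923 CPM at 24 h and 1001, 1028 and 1006 CPM at 48 h. The C/EBPδ-inducible libraries were higher at every time, with a gap that widened from 0 to 48 h as the CTRL libraries moved little. PGK1 rose in C/EBPδ-inducible cells at 8 h (0.13 ± 0.02 (SE), adjusted p = 0.000137), 24 h (0.40 ± 0.02 (SE), adjusted p = 3.67e-12) and 48 h (0.52 ± 0.02 (SE), adjusted p = 2.50e-15, edgeR), and no CTRL change passed (-0.07, 0.05 and -0.03). The interaction was 0.36 ± 0.03 (SE), adjusted p = 3.92e-08 at 24 h and 0.54 ± 0.05 (SE), adjusted p = 4.75e-07 at 48 h. An exon of PGK1 overlaps ATP7A on the same strand.

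ENO1 (ENSG00000074800, chr1:8861000-8879190, minus strand) encodes the main enolase. In CTRL cells, ENO1 stood at 2536, 2639.8 and 2555 CPM at 0 h, 2486, 2309 and 2311 CPM at 8 h, 2419, 2439 and 2434 CPM at 24 h and 1921, 1870.5 and 1963 CPM at 48 h. In C/EBPδ-inducible cells, ENO1 stood at 2955, 2882 and 2935 CPM at 0 h, 2792, 2595 and 2693 CPM at 8 h, 3149, 3071 and 3106 CPM at 24 h and 2859, 2780.1 and 2730.2 CPM at 48 h. Libraries of C/EBPδ-inducible cells were higher at every time, and in CTRL cells the 48 h libraries were the lowest. At 8 h the call of ENO1 between lines (0.20) ended without CTRL 8 h replicate 2 or C/EBPδ-inducible 8 h replicate 1 or 3 (adjusted p from 0.0151 to 0.0235, edgeR). ENO1 fell in CTRL cells at 48 h (-0.43 ± 0.03 (SE), adjusted p = 7.75e-07, edgeR), and its interaction was 0.19 ± 0.03 (SE), adjusted p = 2.59e-05 at 24 h and 0.33 ± 0.04 (SE), adjusted p = 1.22e-05 at 48 h. Its log2 changes in C/EBPδ-inducible cells were -0.11, 0.09 and -0.09 at 8, 24 and 48 h, all DEGs. The calls at 24 h ended in CTRL cells without CTRL 0 h replicate 3 or CTRL 24 h replicate 2 or 3 (adjusted p from 0.0105 to 0.0211) and in the model of all 24 libraries and in C/EBPδ-inducible cells without C/EBPδ-inducible 0 h replicate 2 or 3 or C/EBPδ-inducible 24 h replicate 1 or 3 (adjusted p from 0.0103 to 0.0206) and in the model of all 24 libraries, and the C/EBPδ-inducible call at 48 h without C/EBPδ-inducible 0 h replicate 1 or 3 or C/EBPδ-inducible 48 h replicate 2 or 3 (adjusted p from 0.0270 to 0.0605) and in the model of all 24 libraries. ENO2, the neuronal enolase, was much less abundant (14.7 ± 0.432 CPM per kb at 48 h in C/EBPδ-inducible cells, against 535 ± 12.5 for ENO1) and rose at 48 h by 0.32 in CTRL and 0.36 in C/EBPδ-inducible cells; the CTRL call ended without CTRL 0 h replicate 2 or 3 or CTRL 48 h replicate 3 (adjusted p from 0.0169 to 0.0333).

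GAPDH (ENSG00000111640, chr12:6534512-6538374, plus strand), often used as a reference gene, was not constant. In CTRL cells, GAPDH stood at 4797, 4877 and 4659 CPM at 0 h, 4914, 4591 and 4519 CPM at 8 h, 4732, 4699 and 4806 CPM at 24 h and 4195, 3867 and 4023 CPM at 48 h. With the CEBPD cDNA, GAPDH stood at 4480.1, 4389.8 and 4498 CPM at 0 h, 4489, 4255 and 4261 CPM at 8 h, 4734, 4769 and 4719.8 CPM at 24 h and 4339, 4213 and 4099 CPM at 48 h. The lines overlapped at 24 and 48 h, and CTRL cells were lowest at 48 h. GAPDH fell in CTRL cells at 48 h (-0.25 ± 0.03 (SE), adjusted p = 0.000109, edgeR), and the interaction at 24 h was 0.11 ± 0.03 (SE), adjusted p = 0.00404, a call that ended without CTRL 0 h replicate 2, CTRL 24 h replicate 2, C/EBPδ-inducible 0 h replicate 2 or C/EBPδ-inducible 24 h replicate 1 or 2 (adjusted p from 0.0103 to 0.0228) and without the filter on low counts. Its changes in C/EBPδ-inducible cells were 0.09 at 24 h and -0.10 at 48 h, calls that ended without C/EBPδ-inducible 0 h replicate 2 (adjusted p = 0.0111) and in the model of all 24 libraries and without C/EBPδ-inducible 0 h replicate 1 or 3 or C/EBPδ-inducible 48 h replicate 2 or 3 (adjusted p from 0.0105 to 0.0405) and in the model of all 24 libraries. Rows of 65 GAPDH pseudogenes held counts equal to 3.82% of its own, and adding them changed no call. PGAM1, the mutase of the same step series, moved by at most 0.19 in size on the log2 scale, in C/EBPδ-inducible cells at 8 h (-0.19 ± 0.04 (SE), adjusted p = 0.000199), its only call.

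PKM (ENSG00000067225, chr15:72199029-72231819, minus strand), pyruvate kinase, makes pyruvate and the last ATP. In CTRL cells, PKM stood at 3594, 3719.5 and 3725 CPM at 0 h, 3475, 3231 and 3181 CPM at 8 h, 3949, 3963 and 4026 CPM at 24 h and 3839.6, 3621 and 3832 CPM at 48 h. PKM in C/EBPδ-inducible cells stood at 2522, 2520.3 and 2541 CPM at 0 h, 2196, 2099.6 and 2151 CPM at 8 h, 2601, 2458 and 2549.8 CPM at 24 h and 2516, 2416 and 2349 CPM at 48 h. Every C/EBPδ-inducible library lay below every CTRL library of the same time. The difference was -0.55 ± 0.02 (SE), adjusted p = 6.88e-15 at 0 h and -0.64 ± 0.04 (SE), adjusted p = 5.68e-09 at 48 h (log2, edgeR), so it was of like size with and without doxycycline, and the interaction did not pass (-0.07, -0.09 and -0.12). In CTRL cells PKM was higher at 24 h (0.10 ± 0.02 (SE), adjusted p = 0.000423), a call that ended when all 24 libraries shared one model. The isoforms PKM1 and PKM2 share this row and were not separated.

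**Figure D4:**
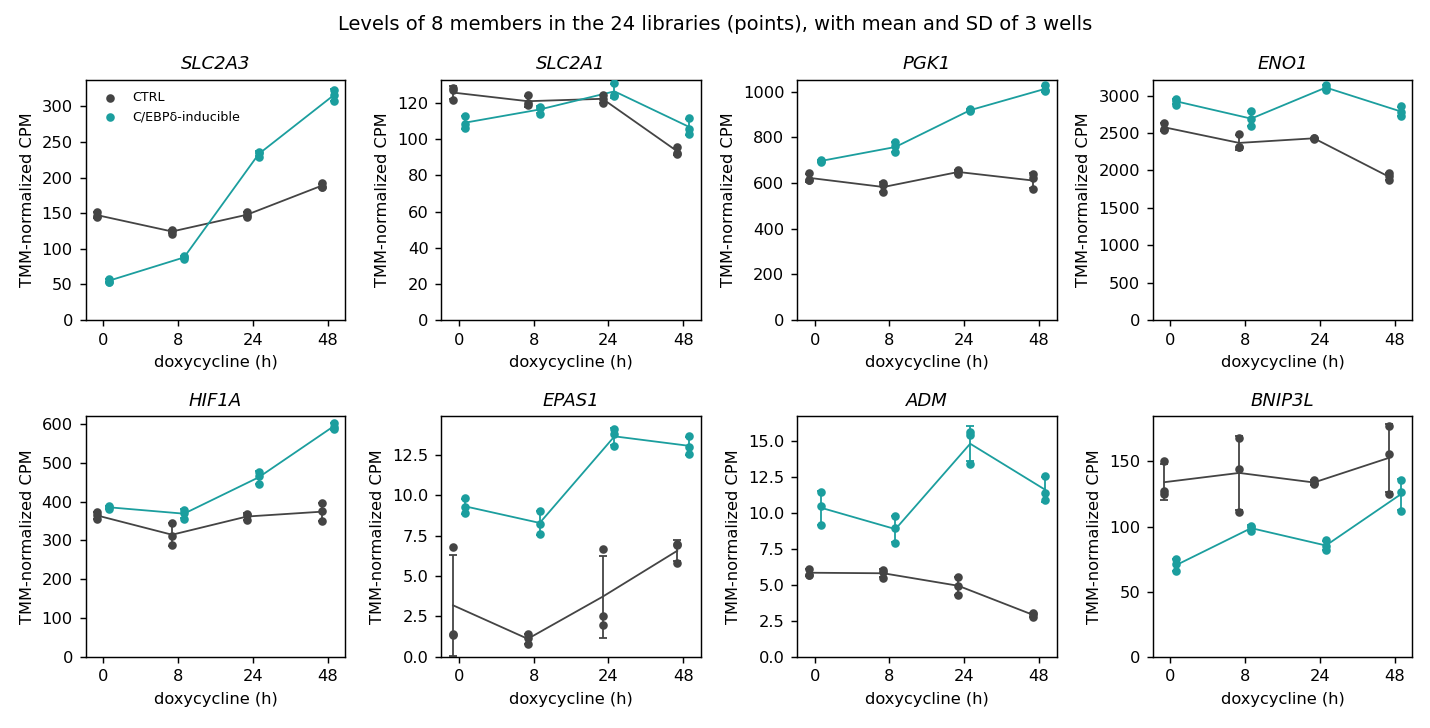
Each point is 1 library, with the mean and SD of 3, for 8 members in TMM-normalized CPM (y axis) against hours of doxycycline (x axis), CTRL cells in grey and C/EBPδ-inducible cells in teal. SLC2A3 and HIF1A rise in C/EBPδ-inducible cells to means of 315 and 594 CPM at 48 h, SLC2A1 and ENO1 fall in CTRL cells at 48 h, and 1 CTRL library of EPAS1 lies apart at 0 h and 1 at 24 h.

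LDHA (ENSG00000134333, chr11:18394560-18408425, plus strand), the lactate dehydrogenase subunit that favors lactate and whose promoter held most ACGTG matches, did not rise in C/EBPδ-inducible cells. In CTRL cells, LDHA stood at 815, 829.5 and 816 CPM at 0 h, 667, 689 and 715 CPM at 8 h, 892, 873 and 856 CPM at 24 h and 722, 766 and 765 CPM at 48 h. The C/EBPδ-inducible wells had LDHA at 1016, 1009.7 and 1005 CPM at 0 h, 880.5, 895 and 888 CPM at 8 h, 959, 966 and 962 CPM at 24 h and 1002, 983 and 964 CPM at 48 h. The C/EBPδ-inducible libraries were higher at every time but were at their highest at 0 h. The difference between lines was 0.30 ± 0.02 (SE), adjusted p = 6.65e-10 at 0 h, 0.15 at 24 h and 0.38 ± 0.04 (SE), adjusted p = 1.99e-06 at 48 h (edgeR). LDHA fell in C/EBPδ-inducible cells at 8 h (-0.18 ± 0.02 (SE), adjusted p = 7.52e-08), and the interaction at 24 h was -0.15 ± 0.03 (SE), adjusted p = 0.00283. That call ended without CTRL 0 h replicate 3, CTRL 24 h replicate 1 or 2, C/EBPδ-inducible 0 h replicate 1, 2 or 3 or C/EBPδ-inducible 24 h replicate 3 (adjusted p from 0.0108 to 0.0227), the CTRL call at 8 h (-0.22) without CTRL 0 h replicate 1, 2 or 3 or CTRL 8 h replicate 2 (adjusted p from 0.0525 to 0.0721), and the CTRL call at 48 h (-0.13) without CTRL 0 h replicate 1, 2 or 3 or CTRL 48 h replicate 3 (adjusted p from 0.0147 to 0.0338). Pseudogenes of LDHA held counts equal to 7.17% of its own. LDHB, the other subunit, was nearly absent (0.835 ± 0.495 CPM in CTRL cells at 0 h and 1.46 ± 0.446 CPM in C/EBPδ-inducible cells at 48 h).

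SLC16A3 (ENSG00000141526, chr17:82217934-82261129, plus strand) encodes MCT4, which exports lactate. In CTRL cells, SLC16A3 stood at 39.2, 42.5 and 38.8 CPM at 0 h, 37.5, 32.6 and 27.7 CPM at 8 h, 38.2, 40.0 and 37.8 CPM at 24 h and 46.0, 41.5 and 40.2 CPM at 48 h. For C/EBPδ-inducible cells the SLC16A3 values were 60.8, 61.9 and 60.8 CPM at 0 h, 43.8, 45.6 and 43.5 CPM at 8 h, 82.1, 71.7 and 79.0 CPM at 24 h and 87.8, 83.4 and 82.0 CPM at 48 h. Libraries of C/EBPδ-inducible cells were higher at every time, dipped at 8 h and were above their 0 h values at 24 and 48 h. From 0 h, SLC16A3 changed in C/EBPδ-inducible cells by -0.46 ± 0.04 (SE), adjusted p = 3.63e-09 at 8 h, 0.34 ± 0.05 (SE), adjusted p = 4.40e-06 at 24 h and 0.44 ± 0.04 (SE), adjusted p = 1.91e-09 at 48 h (edgeR), and no CTRL change passed. The interaction was 0.41 ± 0.07 (SE), adjusted p = 0.000231 at 24 h and 0.35 ± 0.08 (SE), adjusted p = 0.00636 at 48 h, where the call ended without CTRL 0 h replicate 1, 2 or 3, CTRL 48 h replicate 2 or 3, C/EBPδ-inducible 0 h replicate 1, 2 or 3 or C/EBPδ-inducible 48 h replicate 1, 2 or 3 (adjusted p from 0.0101 to 0.0277) and in the model of all 24 libraries. The call between lines at 8 h (0.46) ended without CTRL 8 h replicate 2 or C/EBPδ-inducible 8 h replicate 1, 2 or 3 (adjusted p from 0.0127 to 0.0202). Per kb, SLC16A1 (MCT1), the other lactate carrier, was at 83.8 CPM in CTRL cells at 0 h and 45.4 CPM in C/EBPδ-inducible cells at 48 h, against 4.35 ± 0.221 and 9.14 ± 0.329 CPM for SLC16A3. With the length of the canonical transcript the gap was narrower, at 142 and 76.8 CPM per kb for SLC16A1 against 15.4 and 32.5 for SLC16A3.

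PDK1 (ENSG00000152256, chr2:172555373-172608669, plus strand) phosphorylates pyruvate dehydrogenase and so keeps pyruvate out of the citric acid cycle. In CTRL cells, PDK1 stood at 27.3, 21.6 and 22.8 CPM at 0 h, 24.6, 31.3 and 31.8 CPM at 8 h, 25.0, 27.1 and 24.4 CPM at 24 h and 30.1, 35.8 and 33.6 CPM at 48 h. In C/EBPδ-inducible cells, PDK1 stood at 17.7, 15.8 and 17.8 CPM at 0 h, 22.4, 24.4 and 21.7 CPM at 8 h, 24.1, 26.2 and 24.5 CPM at 24 h and 33.1, 37.6 and 33.9 CPM at 48 h. PDK1 was lower in the C/EBPδ-inducible libraries at 0 and 8 h, with a call between lines at 0 h only, and overlapped with CTRL at 24 and 48 h. It rose in C/EBPδ-inducible cells by 0.43 ± 0.07 (SE), adjusted p = 5.51e-05 at 8 h, 0.54 ± 0.07 (SE), adjusted p = 1.84e-06 at 24 h and 1.01 ± 0.07 (SE), adjusted p = 1.91e-12 at 48 h (log2, edgeR), and in CTRL cells by 0.47 ± 0.09 (SE), adjusted p = 0.00142 at 48 h, a call that ended without CTRL 0 h replicate 2 or 3 (adjusted p from 0.0154 to 0.0160). The interaction was 0.47 ± 0.11 (SE), adjusted p = 0.00507 at 24 h and 0.53 ± 0.12 (SE), adjusted p = 0.00855 at 48 h. Those calls ended without CTRL 0 h replicate 1, CTRL 24 h replicate 1 or 3, C/EBPδ-inducible 0 h replicate 1, 2 or 3 or C/EBPδ-inducible 24 h replicate 2 or 3 (adjusted p from 0.0101 to 0.0292) and without CTRL 0 h replicate 1 or 3, CTRL 48 h replicate 3, C/EBPδ-inducible 0 h replicate 1, 2 or 3 or C/EBPδ-inducible 48 h replicate 1, 2 or 3 (adjusted p from 0.0123 to 0.0324). The related kinase PDK3 was lower in C/EBPδ-inducible cells at all times (-0.28 to -0.46), a call lost under DESeq2 at 0 and 24 h; its call at 0 h also ended without CTRL 0 h replicate 3 or C/EBPδ-inducible 0 h replicate 2 or 3 (adjusted p from 0.0168 to 0.0269), at 8 h without C/EBPδ-inducible 8 h replicate 2 (adjusted p = 0.0123) and at 24 h without CTRL 24 h replicate 2 or 3 or C/EBPδ-inducible 24 h replicate 3 (adjusted p from 0.0168 to 0.0382).

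CA12 (ENSG00000074410, chr15:63321378-63381846, minus strand), a carbonic anhydrase at the cell surface that helps to balance pH, was the only carbonic anhydrase on the list that passed the filter on low counts. In CTRL cells, CA12 stood at 1.23, 1.501 and 3.81 CPM at 0 h, 1.57, 1.45 and 2.75 CPM at 8 h, 1.75, 1.34 and 3.32 CPM at 24 h and 2.08, 1.94 and 2.05 CPM at 48 h. With the CEBPD cDNA, CA12 stood at 1.49, 1.82 and 1.57 CPM at 0 h, 2.41, 2.06 and 3.30 CPM at 8 h, 3.59, 3.00 and 2.99 CPM at 24 h and 4.57, 4.18 and 4.18 CPM at 48 h. CTRL replicate 3 lay above the other 2 at 0, 8 and 24 h, and the lines separated at 48 h alone. CA12 rose in C/EBPδ-inducible cells by 0.95 ± 0.19 (SE), adjusted p = 0.000539 at 24 h and 1.37 ± 0.17 (SE), adjusted p = 2.67e-07 at 48 h (log2, edgeR), and the interaction was 1.02 ± 0.45 (SE), adjusted p = 0.176 at 24 h and 1.49 ± 0.40 (SE), adjusted p = 0.0216 at 48 h. With all 24 libraries in one model the call at 24 h in C/EBPδ-inducible cells ended.

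BNIP3L (ENSG00000104765), also called NIX, is a receptor that marks mitochondria for autophagy, and its relative BNIP3 had at most 7 counts. In CTRL cells, BNIP3L stood at 150.0, 125 and 127 CPM at 0 h, 111, 144 and 168 CPM at 8 h, 136, 132 and 134 CPM at 24 h and 125, 177 and 155 CPM at 48 h. BNIP3L in C/EBPδ-inducible cells stood at 65.5, 74.8 and 71.1 CPM at 0 h, 100.5, 99.7 and 96.3 CPM at 8 h, 82.2, 84.7 and 89.4 CPM at 24 h and 112, 126 and 136 CPM at 48 h. The C/EBPδ-inducible libraries were lower at 0, 8 and 24 h and overlapped with CTRL at 48 h. The difference between lines was -0.93 ± 0.06 (SE), adjusted p = 7.33e-11 at 0 h and -0.30 at 48 h, when it did not pass, and BNIP3L rose in C/EBPδ-inducible cells by 0.80 ± 0.05 (SE), adjusted p = 2.12e-12 at 48 h (log2, edgeR). The interaction at 48 h was 0.61 ± 0.14 (SE), adjusted p = 0.00727, and the call ended without CTRL 0 h replicate 1 or 3, CTRL 48 h replicate 3, C/EBPδ-inducible 0 h replicate 1, 2 or 3 or C/EBPδ-inducible 48 h replicate 2 or 3 (adjusted p from 0.0123 to 0.0311) and under DESeq2. The call between lines at 8 h (-0.50) ended without CTRL 8 h replicate 2 or C/EBPδ-inducible 8 h replicate 1, 2 or 3 (adjusted p from 0.0163 to 0.0219).

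HIF1A (ENSG00000100644, chr14:61695513-61748259, plus strand) encodes the HIF alpha subunit that acts on most glycolytic targets. In CTRL cells, HIF1A stood at 365, 373 and 355 CPM at 0 h, 288, 311 and 346 CPM at 8 h, 366, 367 and 352 CPM at 24 h and 350.4, 396 and 376 CPM at 48 h. The C/EBPδ-inducible wells had HIF1A at 387, 388 and 381 CPM at 0 h, 371, 379.9 and 356 CPM at 8 h, 445, 477 and 466 CPM at 24 h and 586, 604 and 593 CPM at 48 h. Libraries of C/EBPδ-inducible cells were higher at every time, narrowly at 0 h, where the test between lines did not pass, and were highest at 48 h. HIF1A rose in C/EBPδ-inducible cells by 0.26 ± 0.03 (SE), adjusted p = 1.76e-07 at 24 h and 0.60 ± 0.03 (SE), adjusted p = 4.83e-16 at 48 h (log2, edgeR), while the CTRL changes were -0.02 and 0.04 and did not pass. The interaction was 0.29 ± 0.04 (SE), adjusted p = 2.45e-05 at 24 h and 0.56 ± 0.05 (SE), adjusted p = 8.05e-07 at 48 h, and neither call was lost in any alternative run. The call between lines at 8 h (0.24) ended without CTRL 8 h replicate 2 or C/EBPδ-inducible 8 h replicate 1, 2 or 3 (adjusted p from 0.0242 to 0.0477).

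EPAS1 (ENSG00000116016, chr2:46293667-46386697, plus strand) encodes HIF-2α. In CTRL cells, EPAS1 stood at 1.34, 1.44 and 6.78 CPM at 0 h, 0.783, 1.15 and 1.41 CPM at 8 h, 1.96, 2.54 and 6.65 CPM at 24 h and 6.90, 5.81 and 6.99 CPM at 48 h. For C/EBPδ-inducible cells the EPAS1 values were 8.89, 9.25 and 9.82 CPM at 0 h, 8.23, 7.58 and 9.06 CPM at 8 h, 14.1, 13.1 and 13.8 CPM at 24 h and 13.7, 12.97 and 12.6 CPM at 48 h. The C/EBPδ-inducible libraries were higher at every time, and CTRL replicate 3 lay apart at 0 and 24 h but not at 8 h. The difference between lines was 1.49 ± 0.31 (SE), adjusted p = 0.000451 at 0 h, 2.91 ± 0.19 (SE), adjusted p = 2.65e-07 at 8 h, 1.86 ± 0.20 (SE), adjusted p = 1.08e-08 at 24 h and 0.97 ± 0.10 (SE), adjusted p = 3.39e-06 at 48 h (log2, edgeR). Without CTRL replicate 3 it was 2.73 (adjusted p = 2.52e-10) at 0 h and 2.59 (adjusted p = 1.56e-13) at 24 h, and under DESeq2 the call at 0 h ended (adjusted p = 0.107). The CTRL change at 8 h was -1.54 ± 0.61 (SE), adjusted p = 0.197, and the C/EBPδ-inducible changes at 24 h (0.55) and 48 h (0.47) passed but ended when all 24 libraries shared one model. Per kb, HIF1A stood far above EPAS1, at 115 ± 1.75 against 1.79 ± 0.0771 CPM in C/EBPδ-inducible cells at 48 h.

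Of the prolyl hydroxylases, which act as oxygen sensors, EGLN1 (PHD2) was higher in C/EBPδ-inducible cells at all times, from 0.28 at 24 h to 0.56 at 8 h, and EGLN3 (PHD3) had from 0 to 13 counts. EGLN1 fell in C/EBPδ-inducible cells at 24 h (-0.16 ± 0.04 (SE), adjusted p = 0.00288) and 48 h (-0.18 ± 0.04 (SE), adjusted p = 0.000183, edgeR), from 134 ± 5.78 CPM at 0 h to 119.9 ± 2.23 and 119.8 ± 1.01 CPM (SD, n = 3). Both calls ended when all 24 libraries shared one model, and the first also without C/EBPδ-inducible 0 h replicate 2 or 3 or C/EBPδ-inducible 24 h replicate 3 (adjusted p from 0.0187 to 0.0399). The interaction at 24 h was -0.26 ± 0.06 (SE), adjusted p = 0.00225, and the call ended without CTRL 0 h replicate 2, CTRL 24 h replicate 1 or 2, C/EBPδ-inducible 0 h replicate 2 or C/EBPδ-inducible 24 h replicate 3 (adjusted p from 0.0116 to 0.0165).

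ADM (ENSG00000148926, chr11:10305073-10307397, plus strand) encodes adrenomedullin, a peptide that widens blood vessels and a known HIF target. In CTRL cells, ADM stood at 6.11, 5.70 and 5.69 CPM at 0 h, 5.87, 5.49 and 6.02 CPM at 8 h, 4.30, 5.54 and 4.94 CPM at 24 h and 3.03, 2.76 and 2.94 CPM at 48 h. In C/EBPδ-inducible cells, ADM stood at 9.11, 11.4 and 10.5 CPM at 0 h, 8.91, 9.74 and 7.91 CPM at 8 h, 15.6, 13.4 and 15.4 CPM at 24 h and 12.5, 11.4 and 10.9 CPM at 48 h. Libraries of C/EBPδ-inducible cells were higher at every time and highest at 24 h, while the CTRL libraries were lowest at 48 h. The difference between lines was 0.83 ± 0.11 (SE), adjusted p = 2.64e-06 at 0 h and 1.98 ± 0.12 (SE), adjusted p = 1.15e-08 at 48 h (log2, edgeR). ADM fell in CTRL cells at 48 h (-0.998 ± 0.13 (SE), adjusted p = 7.52e-05) and rose in C/EBPδ-inducible cells at 24 h (0.51 ± 0.09 (SE), adjusted p = 0.000196), and at 48 h in C/EBPδ-inducible cells it stood at 0.14, not a DEG. The interaction was 0.76 ± 0.16 (SE), adjusted p = 0.00155 at 24 h and 1.13 ± 0.16 (SE), adjusted p = 9.51e-05 at 48 h.

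NDRG1 (ENSG00000104419) is a stress gene raised by hypoxia and by iron chelation. In CTRL cells, NDRG1 stood at 8.85, 8.76 and 9.39 CPM at 0 h, 10.8, 9.89 and 9.39 CPM at 8 h, 10.7, 10.4 and 11.1 CPM at 24 h and 15.8, 13.1 and 14.04 CPM at 48 h. With the CEBPD cDNA, NDRG1 stood at 16.99, 20.3 and 16.6 CPM at 0 h, 22.0, 20.9 and 22.5 CPM at 8 h, 27.6, 23.5 and 23.8 CPM at 24 h and 23.04, 26.2 and 26.4 CPM at 48 h. The C/EBPδ-inducible libraries were higher at every time, and both lines were above their own 0 h libraries at 24 and 48 h. The difference between lines was 1.00 ± 0.09 (SE), adjusted p = 2.07e-08 at 0 h and 1.22 ± 0.08 (SE), adjusted p = 8.65e-13 at 24 h (log2, edgeR), and NDRG1 rose at 48 h by 0.67 ± 0.10 (SE), adjusted p = 0.000195 in CTRL and 0.46 ± 0.08 (SE), adjusted p = 1.34e-05 in C/EBPδ-inducible cells. The call in C/EBPδ-inducible cells at 8 h (0.27) ended without C/EBPδ-inducible 0 h replicate 1 or 3 or C/EBPδ-inducible 8 h replicate 1, 2 or 3 (adjusted p from 0.0101 to 0.0512), under DESeq2 and in the model of all 24 libraries, and the interaction was -0.22 ± 0.13 (SE), adjusted p = 0.369 at 48 h. ANKRD37, another HIF target, had 9 to 38 counts and passed in no comparison, with an interaction of 0.81 ± 0.41 (SE), adjusted p = 0.255 at 48 h. KDM3A, a histone demethylase induced by hypoxia, passed in no comparison either, with log2 values from -0.15 to 0.17 and levels between 94.5 and 109.6 CPM.

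P4HA1 (ENSG00000122884, chr10:73007217-73096974, minus strand) is the catalytic subunit of prolyl 4-hydroxylase, which collagen needs to fold. In CTRL cells, P4HA1 stood at 84.5, 84.9 and 83.7 CPM at 0 h, 80.1, 91.0 and 93.9 CPM at 8 h, 97.4, 102 and 101 CPM at 24 h and 112, 129 and 128 CPM at 48 h. P4HA1 in C/EBPδ-inducible cells stood at 59.6, 62.3 and 65.0 CPM at 0 h, 77.2, 76.0 and 80.7 CPM at 8 h, 87.9, 93.9 and 88.5 CPM at 24 h and 117, 125 and 129.6 CPM at 48 h. Libraries of C/EBPδ-inducible cells were lower at 0 h and overlapped with CTRL at 48 h, and both lines were highest at 48 h. P4HA1 rose in CTRL cells by 0.24 ± 0.04 (SE), adjusted p = 1.00e-04 at 24 h and 0.54 ± 0.06 (SE), adjusted p = 1.28e-05 at 48 h, and in C/EBPδ-inducible cells by 0.53 ± 0.04 (SE), adjusted p = 1.45e-09 and 0.97 ± 0.04 (SE), adjusted p = 6.09e-16 (log2, edgeR). The interaction was 0.30 ± 0.06 (SE), adjusted p = 0.000536 at 24 h and 0.42 ± 0.08 (SE), adjusted p = 0.00111 at 48 h. The call between lines at 24 h (-0.15) ended without CTRL 24 h replicate 2 or 3 or C/EBPδ-inducible 24 h replicate 3 (adjusted p from 0.0101 to 0.0224) and in the model of all 24 libraries. Its relative P4HA2 rose at 48 h in CTRL (0.31) and C/EBPδ-inducible cells (0.56); in CTRL cells the call ended without CTRL 0 h replicate 1, 2 or 3 or CTRL 48 h replicate 3 (adjusted p from 0.0123 to 0.0379) and under DESeq2. ERO1A, which oxidizes disulfide bonds in the endoplasmic reticulum, changed in C/EBPδ-inducible cells by 0.28 at 8 h and -0.17 at 24 h, calls that ended when all 24 libraries shared one model. The call at 24 h also ended without C/EBPδ-inducible 0 h replicate 2 (adjusted p = 0.0125, edgeR).

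Other genes of the pathway, from 3 lists of names, are given by counts. Among 36 further isoforms and branch enzymes of glycolysis, 7 of 27 tested passed the interaction test at 48 h (5 higher and 2 lower, median 0.09), 9 of 27 at 24 h (6 higher and 3 lower, median 0.0118) and 0 of 27 at 8 h in edgeR's test, where 10 had an unadjusted p below 0.05. The shares at 8, 24 and 48 h were 0, 33.3 and 25.9%, against a background of 1.66, 5.84 and 5.54%. PGM1, which links glycogen and glycolysis, and PGD, an enzyme of the pentose phosphate pathway, had interactions of 0.73 and 0.60 at 48 h, toward a higher level in C/EBPδ-inducible cells, and the glycogen phosphorylase PYGB had one of -0.48. PGD went from 359 ± 6.59 to 541 ± 11.4 CPM in C/EBPδ-inducible cells and from 279 ± 4.68 to 271 ± 2.72 CPM in CTRL cells (SD, n = 3). Within lines, 11 of 27, 13 of 27 and 14 of 27 were DEGs at 8, 24 and 48 h in C/EBPδ-inducible cells (6 higher and 5 lower, 10 higher and 3 lower, and 11 higher and 3 lower), and 1 of 27, 3 of 26 and 8 of 26 in CTRL cells. The background of these 6 comparisons was 30.5, 15.5 and 38.7% in C/EBPδ-inducible and 1.7, 6.06 and 30% in CTRL cells. PCK2, the mitochondrial carboxykinase, was a DEG in CTRL cells at all 3 times (1.03, 0.89 and 1.31). Between the lines, 13 of 27, 9 of 27, 17 of 27 and 10 of 27 were DEGs at 0, 8, 24 and 48 h (48.1, 33.3, 63 and 37%, against a background of 43.9, 31.8, 46.9 and 38.3%), and PYGB was lower in C/EBPδ-inducible cells at each (-1.13 to -1.78).

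Among 16 regulators of HIF, 1 of 14, 1 of 14 and 1 of 14 passed the interaction test at 8, 24 and 48 h, CITED2 at 8 and 48 h (0.73 and 0.51) and ELOB, a partner of VHL, at 24 h (0.25). The share was 7.14% each time, against a background of 1.66, 5.84 and 5.54%, and so near the background at 24 and 48 h. CITED2, which competes with HIF for its coactivators, was lower in C/EBPδ-inducible cells at every time, at 6.25 ± 0.377 against 30.5 ± 0.811 CPM at 0 h (SD, n = 3) and by -1.90 on the log2 scale at 24 h. ARNT, the partner of the alpha subunits, was higher (0.53 at 0 h and 0.55 at 24 h), at 95.5 ± 2.40 against 65.7 ± 2.46 CPM at 24 h. Over time, 3 of 14, 1 of 14 and 7 of 14 were DEGs in C/EBPδ-inducible cells and 0 of 14, 1 of 14 and 5 of 14 in CTRL cells at 8, 24 and 48 h, where 1 of the 14 had an unadjusted p below 0.05 in CTRL cells at 8 h (edgeR), and between lines 6 of 14, 5 of 14, 8 of 14 and 5 of 14 (42.9, 35.7, 57.1 and 35.7%, against a background of 43.9, 31.8, 46.9 and 38.3%). The shares over time were 21.4, 7.14 and 50% in C/EBPδ-inducible cells (background 30.5, 15.5 and 38.7%) and 0, 7.14 and 35.7% in CTRL cells (background 1.7, 6.06 and 30%).

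Among 37 further genes known to rise in hypoxia, 5 of 33 (2 higher and 3 lower), 5 of 31 (4 higher and 1 lower) and 7 of 32 (6 higher and 1 lower) passed the interaction test at 8, 24 and 48 h, with a median log2 difference of 0.15 at 48 h. These are 15.2, 16.1 and 21.9%, where the background was 1.66, 5.84 and 5.54%. BHLHE40, a repressor of the clock, passed upward at 24 and 48 h (0.98 and 0.82), and AK4, a mitochondrial adenylate kinase, at 48 h (1.05), although AK4 was still lower in C/EBPδ-inducible cells then (77.4 ± 1.85 against 205 ± 11.6 CPM). In CTRL cells alone, 5 of 29, 7 of 29 and 15 of 30 were DEGs at 8, 24 and 48 h, and DDIT4, an inhibitor of mTOR, the lipoprotein receptor gene VLDLR and the angiogenic factor VEGFA were higher at each time (2.08, 2.05 and 1.42 at 48 h). With the CEBPD cDNA, 17 of 32, 11 of 30 and 20 of 30 were DEGs (18 higher and 2 lower at 48 h, median 0.44). VEGFA went from 52.9 ± 3.04 to 141 ± 3.68 CPM in CTRL and from 105 ± 1.79 to 245 ± 5.10 CPM in C/EBPδ-inducible cells (SD, n = 3). Between lines, 16 of 30, 20 of 33, 20 of 30 and 18 of 31 were DEGs at 0, 8, 24 and 48 h (53.3, 60.6, 66.7 and 58.1%, background 43.9, 31.8, 46.9 and 38.3%). Over time the shares were 53.1, 36.7 and 66.7% in C/EBPδ-inducible cells (background 30.5, 15.5 and 38.7%) and 17.2, 24.1 and 50% in CTRL cells (background 1.7, 6.06 and 30%). CITED2, GBE1 and PFKFB1 stand on more than 1 of these lists.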

How the data were processed

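The deposited table holds whole-number counts per Ensembl gene. Per the labels and the study's methods, the authors used Trimmomatic for trimming, Hisat2 for alignment to GRCh38 and HTSeq for counting on Ensembl genes, without normalization; the strand setting and the handling of multiply matching reads are not given in the sources used here, and the labels and the methods differ on tool versions. Symbols, exons and coordinates come from GENCODE 44 on GRCh38, a later annotation (56558 of 60675 identifiers matched).

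From these counts, TMM-scaled CPM and edgeR 4.0.16 (R 4.3.3) quasi-likelihood tests were computed for 13 comparisons, each on the groups it compares, after edgeR's filter on low counts. P-values are two-sided, adjusted with the Benjamini-Hochberg method over all genes tested, at an FDR of 0.01, the study's cut-off. Totals from 12731237 to 22598595 counts set the precision; 3 counts were taken as the floor. Levels are compared between genes only per kb. The length was that of merged exons, and for SLC2A3 with SLC2A1 and SLC16A3 with SLC16A1 also that of the canonical transcript. The edgeR and DESeq2 tests were run on simulated counts for the C/EBPδ-inducible change at 24 h and for the interaction at 24 h. Other comparisons were not simulated.

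The members and all gene lists were chosen with earlier results of these data known. Values in every library are given for HIF1A, EPAS1, SLC2A1, GAPDH, LDHA and PGK1 and for the 5 members with the largest called change in each of 5 comparisons (24 h against 0 h in each line, the lines at 0 and at 24 h, and the interaction at 24 h). Genes of the other lists are named from the 3 with the largest called change in a comparison, apart from LDHB and SLC16A1, shown beside their relatives and chosen after their values were seen. Alternatives, run on the 39 members, were DESeq2 1.42.0, RLE scaling, no filter, one model of all 24 libraries, pseudogene counts added, a block for replicate number, and leaving out each library; the canonical transcript length was added after seeing the data. The pairing comes from replicate numbers in the labels; same-numbered libraries deviated together (every correlation over 0.1) only between 24 h and 0 h in CTRL cells (0.174, 0.179 and 0.251). No library pair agreed within sampling noise (chi-square per gene at least 1.66).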

Additional observations from a re-analysis of the deposited data

Results flagged for a closer look

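The change from 0 h differed between C/EBPδ-inducible and CTRL cells (edgeR's interaction test, FDR 0.01) for 1 member at 8 h, 13 at 24 h and 14 at 48 h, and the log2 differences follow, positive where the change was more upward in C/EBPδ-inducible than in CTRL cells. At 8 h it was SLC2A3 0.92. At 24 h the values were SLC2A1 0.27, SLC2A3 2.08, ALDOA 0.16, GAPDH 0.11, PGK1 0.36, ENO1 0.19, LDHA -0.15, SLC16A3 0.41, PDK1 0.47, HIF1A 0.29, EGLN1 -0.26, ADM 0.76 and P4HA1 0.3. At 48 h the values were SLC2A1 0.37, SLC2A3 2.13, HK2 0.37, ALDOA 0.33, TPI1 0.28, PFKFB4 0.74, PGK1 0.54, ENO1 0.33, SLC16A3 0.35, PDK1 0.53, BNIP3L 0.61, HIF1A 0.56, ADM 1.13 and P4HA1 0.42. The 2 negative values, LDHA and EGLN1 at 24 h, are both calls that ended when some single libraries were left out. The same holds for the positive calls of GAPDH and PDK1 at 24 h and of PFKFB4, SLC16A3, PDK1 and BNIP3L at 48 h.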

How the results depend on the processing

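Of 205 member calls over the 13 comparisons, 151 were kept in every alternative, 41 were lost when some library was left out, 43 were lost under another setting, and 0 reversed. Adding pseudogene counts changed no call. The model of all 24 libraries gave 5 members for CTRL cells at 8 h, 2 at 24 h, 11 for C/EBPδ-inducible cells at 24 h, and 2 and 6 for the interaction at 8 and 24 h. Without the filter on low counts, CTRL cells at 8 h gave 5 and the interaction at 8 h 5; DESeq2 gave 2 and 2, and RLE scaling gave 2 for the interaction at 8 h. The cause of these shifts was not tested.

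Leaving out each library gave these ranges of called members. Between lines they were 22 to 26 at 0 h, 13 to 22 at 8 h, 23 to 27 at 24 h and 22 to 25 at 48 h. In CTRL cells they were 0 to 7 at 8 h, 3 to 6 at 24 h and 14 to 20 at 48 h, and in C/EBPδ-inducible cells 17 to 20, 15 to 20 and 18 to 25. For the interaction they were 1 to 6, 10 to 13 and 10 to 15.

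With the replicate number as a block, CTRL cells at 8 h gave 0 members in place of 1 (LDHA), and no other count moved by over 1.5 times. The block also ended the calls of HK2, TPI1 and PDK3 between lines at 0 h, PFKFB4, LDHA and P4HA2 in CTRL cells at 48 h, ENO1 in C/EBPδ-inducible cells at 24 h and PDK1 in the interaction at 48 h, and none in CTRL cells at 24 h. Outside CTRL cells at 24 h, no comparison had every correlation of same-numbered libraries over 0.1, and they ran from -0.138 to 0.139. Whether same-numbered wells were handled together is not given in the sources used here.

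Depth limits CA9, BNIP3, LOX and EGLN3, whose changes were not detectable at 0 to 13 counts a library, and the precision of ANKRD37, CA12 and EPAS1. The alternatives were not run on genes of the other lists. With wells as replicates, differences between independent cultures were not measured.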
